A study of Rattus norvegicus with 12 samples.

Results

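The transcripts described here are those of the secreted and membrane-bound metalloproteinases that cut the extracellular matrix and of their tissue inhibitors, in wounds of diabetic rats. The set holds every gene of the count table whose symbol is Mmp followed by a number, Adamts followed by a number, or Timp1 to Timp4. It comprised 45 of 25620 genes, namely 22 matrix metalloproteinases (MMPs), 19 ADAMTS proteases, and 4 TIMPs, and all 45 were also among the 25524 genes with FPKM values. The wounds were full-thickness punch wounds on the back of young adult male SD rats with diabetes induced by streptozotocin. They received saline (Control), the dried mucus gel of the snail A. fulica (d-SMG), the sulfated glycosaminoglycan isolated from that mucus (GAG, called s-GAG in the study), or a commercial alginate dressing (Alg). Diabetes and the wound were shared by every group, no undamaged skin was among the samples used here, and streptozotocin destroys insulin-producing cells, so that the model is one of insulin lack. Wound tissue was collected on day 3, 7, and 14, and stranded libraries depleted of rRNA were sequenced. There was 1 library for each treatment and day, 12 in all, and the number of rats behind a library is not given in the sources used here.

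MMPs are zinc proteases that are mostly made as inactive precursors and that cleave collagens, gelatin, laminin, and other matrix proteins. ADAMTS proteases are secreted relatives with thrombospondin repeats, among them enzymes that trim procollagens and enzymes that cleave the proteoglycans aggrecan and versican. TIMPs bind the active site of these proteases and block it, and in chronic diabetic wounds high protease activity relative to the inhibitors is a known feature. Only mRNA levels were measured here, and neither protein nor enzyme activity was.

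The libraries held from 13748887 to 38302461 reads on genes, with a median of 17022524.5, and the 45 genes took from 0.0967% to 0.371% of them. A pair of libraries stood apart. In d-SMG day 3 the summed FPKM of 8 keratinocyte genes was 16.0, against 2292 to 15026 in the other 11 libraries, and that of 10 skeletal muscle genes was 49281, the highest of all. In GAG day 14 the sum of 10 macrophage genes was 296, the lowest of all, that of 10 fibroblast genes was 1470, the lowest but for the 955 of d-SMG day 3, and that of the muscle genes was 34282, with 34340 in Alg day 7. The sum of 10 hair follicle genes was 7.30, 15.98, and 474 in Control on day 3, 7, and 14, 3.76, 764, and 1038 in d-SMG, 2437, 1699.8, and 1624 in GAG, and 767, 90.6, and 9418 in Alg. The factors of the TMM normalization, which scales libraries by the bulk of their genes, were 0.715 in d-SMG day 3 and 0.781 in GAG day 14, and at most 1.21 elsewhere. The part of tissue makeup in any of the values that follow was not tested. In bulk tissue, fewer cells of a type and less RNA per cell cannot be told apart.

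Levels are given as FPKM, which divides the reads of a gene by its length and by the library's total, so that genes can be set side by side. Of the 22 MMPs, 13 reached 1 FPKM in some library, as did 18 of the 19 ADAMTS genes and all 4 TIMPs. The genes at or above 10 FPKM in all 12 libraries were Mmp2, Mmp14, Timp1, and Timp2. At the other end, Mmp1, Mmp1b, and Mmp20 had 6, 3, and 2 reads over all libraries together. Mmp1 and Mmp1b are the rat relatives of the human interstitial collagenase, and Mmp20 is the enamel protease.

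The most abundant proteases were a gelatinase and the enzyme that activates it. Mmp2, which digests denatured collagen and basement membrane, was at 130.3, 208, and 264 FPKM in Control on day 3, 7, and 14, and at 19.7, 251, and 179 FPKM in d-SMG. Its levels were 158, 137, and 58.6 FPKM in GAG and 168, 87.8, and 271 FPKM in Alg on the same days. Mmp2 was thus low in the d-SMG library of day 3 and the GAG library of day 14, and the other 10 libraries lay between 87.8 and 271 FPKM. Mmp14, the membrane-bound protease that converts the Mmp2 precursor together with Timp2, had 85.5, 206, and 224 FPKM in Control and 15.5, 191, and 122 FPKM in d-SMG. It had 105, 93.3, and 22.8 FPKM in GAG and 91.9, 64.5, and 122 FPKM in Alg. Its lowest libraries were the same as those of Mmp2, and together both genes made up from 60.3% to 83.7% of the summed MMP FPKM of a library. Among the other membrane-type MMPs, Mmp15 stayed between 1.03 and 5.22 FPKM, and Mmp16, Mmp17, Mmp24, and Mmp25 stayed under 1 FPKM in all libraries.

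The stromelysin Mmp3, which cleaves many noncollagen matrix proteins and activates other MMPs, varied far more than Mmp2 between libraries. It was at 93.0, 8.84, and 38.5 FPKM in Control on day 3, 7, and 14 and at 1.92, 49.7, and 93.9 FPKM in d-SMG. It was at 30.1, 35.2, and 14.8 FPKM in GAG and at 70.6, 11.6, and 105 FPKM in Alg. In Control and Alg the day 7 library was thus the lowest of the 3, whereas d-SMG went from the lowest value of all libraries on day 3 to one of the highest on day 14. Its share of the summed MMP FPKM ran from 1.74% in Control day 7 to 26.0% in Control day 3. The related Mmp10 stayed at or under 0.81 FPKM. Mmp11, a stromelysin by name that is released by stromal cells in an active form, was highest in Control day 14 with 18.8 FPKM and lowest in d-SMG day 3 with 0.25 FPKM.

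Mmp12, the elastase of macrophages, was at 5.76, 21.8, and 5.36 FPKM in Control and at 1.39, 52.0, and 10.97 FPKM in d-SMG. It was at 55.1, 5.64, and 3.81 FPKM in GAG and at 1.80, 9.77, and 3.04 FPKM in Alg. GAG day 3 and d-SMG day 7 stood well above the other 10 libraries. The summed FPKM of the 10 macrophage genes was 1217 and 2692 in these libraries, and from 296 to 2466 in the other 10. The part of macrophage content in the Mmp12 levels was not tested.

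Mmp13, the main interstitial collagenase of rodents, had 5.94, 13.2, and 0.28 FPKM in Control and 0.13, 5.48, and 6.36 FPKM in d-SMG. It had 2.38, 4.17, and 4.04 FPKM in GAG and 2.73, 8.95, and 6.71 FPKM in Alg. Mmp9, the gelatinase of neutrophils, macrophages, and migrating keratinocytes, had 3.28, 6.44, and 0.26 FPKM in Control and 0.07, 3.31, and 3.63 FPKM in d-SMG. Both genes were highest in Control day 7 and had their 2 lowest libraries in common, Control day 14 and d-SMG day 3. Mmp9 had 2.52, 1.39, and 2.84 FPKM in GAG and 1.74, 2.86, and 1.45 FPKM in Alg. Mmp8, the collagenase that neutrophils store, stayed between 0.03 and 1.91 FPKM, and of the 10 neutrophil marker genes, 5 were listed at 0 in some library.

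Mmp13, Mmp12, Mmp1b, Mmp3, Mmp1, Mmp10, Mmp8, Mmp27, Mmp20, and Mmp7 lie next to each other in this order on chromosome 8 in the RefSeq gene table of the rat, assembly GRCr8. The build behind the count table is not named in the sources used here. The order of the levels in the wounds did not follow the order on the chromosome, with Mmp3 at a mean of 46.1 FPKM between Mmp1b at 0.00917 FPKM and Mmp1 at 0.0133 FPKM. Of the 45 genes, 34 had a promoter window of 300 bases in the RefSeq-derived table, 250 bases before and 50 after the start. The AP-1 motif TGAGTCA, read on both strands, was present in the windows of 6 of 16 MMPs, all 6 within the chromosome 8 group, in 0 of 14 ADAMTS genes, and in 0 of 4 TIMPs. It was present in 5.04% of the windows of all 27457 genes. The TATA motif TATAAA was found in 8 of the 10 genes of the group and in 15.3% of all genes, and the motifs share no bases in the stretches shown. AP-1 is the factor formed by FOS and JUN proteins, long known to drive collagenase and stromelysin genes. The 110 bases before the start are shown for the 5 genes of the group that have the AP-1 motif and more than 100 reads, since these hold the collagenase, stromelysin, and elastase transcripts described above. Capitals mark the AP-1 motif, which Mmp13 carries on the opposite strand as TGACTCA, and the TATA motif nearest to the start. A match is a description of letters and not of binding. All are on the plus strand of GRCr8, at chr8:12782719-12782828 for Mmp13, chr8:12925171-12925280 for Mmp3, chr8:12974597-12974706 for Mmp10, chr8:13132933-13133042 for Mmp7, and chr8:12866542-12866651 for Mmp12.
Mmp13: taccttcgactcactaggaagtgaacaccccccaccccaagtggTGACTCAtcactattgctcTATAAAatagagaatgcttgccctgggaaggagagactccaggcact
Mmp3: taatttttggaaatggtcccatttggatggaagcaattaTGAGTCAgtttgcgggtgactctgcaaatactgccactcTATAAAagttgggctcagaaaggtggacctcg
Mmp10: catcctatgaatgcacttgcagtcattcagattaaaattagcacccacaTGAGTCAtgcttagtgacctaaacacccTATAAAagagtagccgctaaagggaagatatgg
Mmp7: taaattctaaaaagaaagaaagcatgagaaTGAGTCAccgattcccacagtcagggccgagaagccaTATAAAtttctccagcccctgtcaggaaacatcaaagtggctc
Mmp12: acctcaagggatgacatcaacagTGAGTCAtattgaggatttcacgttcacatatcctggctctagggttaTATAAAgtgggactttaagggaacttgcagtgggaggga
The AP-1 motif began 66 bases before the start in Mmp13, 71 in Mmp3, 61 in Mmp10, 80 in Mmp7, and 87 in Mmp12. The same layout was thus shared by genes whose reads over the 12 libraries ran from 117 for Mmp7 to 21217 for Mmp3.

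**Figure D1:**
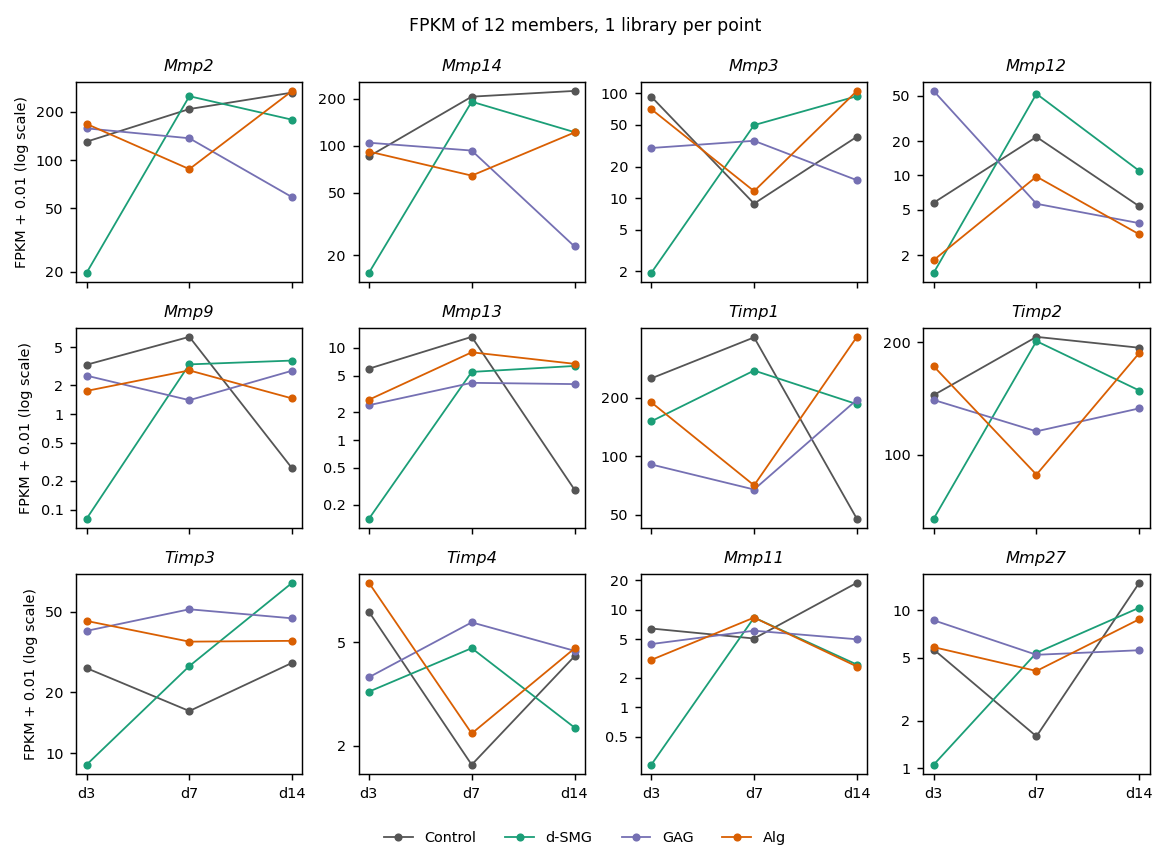
FPKM (plus 0.01, log scale, own range in each panel) of 12 genes by day after wounding, with 1 library per point and a line for each treatment. Mmp2 and Mmp14 drop together in d-SMG day 3 and GAG day 14, and Mmp9 and Mmp13 drop together in d-SMG day 3 and Control day 14.

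Among the inhibitors, Timp1 varied most between libraries, with a highest level 8.66 times its lowest, and Timp2 varied least. Timp1, which is induced by cytokines and growth factors, had 252, 410.0, and 47.7 FPKM in Control on day 3, 7, and 14 and 151, 277, and 186 FPKM in d-SMG. It had 90.8, 67.5, and 196 FPKM in GAG and 189.8, 70.9, and 413 FPKM in Alg. Control went from near the top on day 7 to the lowest of the 12 libraries on day 14, while GAG and Alg were at their lowest on day 7. Timp2, which is made steadily by many stromal cells, had 144, 207, and 193 FPKM in Control and 67.5, 201, and 148 FPKM in d-SMG. It had 140.1, 116, and 133 FPKM in GAG and 172, 88.5, and 187 FPKM in Alg. Its highest library was 3.06 times its lowest, the smallest such ratio among the genes that had FPKM above 0 in every library.

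Timp3, the inhibitor that stays bound to the matrix and also blocks ADAM and ADAMTS proteases, had 26.3, 16.2, and 28.0 FPKM in Control and 8.76, 26.9, and 69.5 FPKM in d-SMG. It had 40.2, 51.4, and 46.4 FPKM in GAG and 45.0, 35.6, and 35.9 FPKM in Alg. All 6 GAG and Alg libraries were therefore above all 3 Control libraries, without a replicate of any of them. Timp4 was the scarcest, with 6.55, 1.68, and 4.41 FPKM in Control and 3.22, 4.74, and 2.34 FPKM in d-SMG. It had 3.66, 5.96, and 4.63 FPKM in GAG and 8.47, 2.22, and 4.73 FPKM in Alg. Timp1 exceeded Timp2 in 8 of the 12 libraries, the exceptions being Control day 14, GAG day 3, GAG day 7, and Alg day 7.

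The protease to inhibitor balance was summarized as the summed FPKM of the 22 MMPs over that of the 4 TIMPs. In Control it was 0.834, 0.802, and 2.13 on day 3, 7, and 14. In d-SMG it was 0.243, 1.18, and 1.10, in GAG 1.41, 1.25, and 0.354, and in Alg 0.878, 1.07, and 0.846. The ratio exceeded 1 in 1 of 4 libraries on day 3, in 3 of 4 on day 7, and in 2 of 4 on day 14. Which libraries exceeded 1 depended on the measure. From summed TMM-normalized reads, which are not divided by length, the ratio was 1.01 in Control day 3, 1.12 in Control day 7, and 1.15 in Alg day 14. By FPKM all of these were under 1. Without Mmp2 the FPKM ratio exceeded 1 only in Control day 14. The means were 0.841 ± 0.476 (SD, n = 4 treatments), 1.08 ± 0.196, and 1.11 ± 0.751 on these days, so that the means differed by less than the SD of day 3 or that of day 14. Over the 3 days the means were 1.26 ± 0.760 (SD, n = 3 days) in Control, 0.842 ± 0.520 in d-SMG, 1.003 ± 0.568 in GAG, and 0.932 ± 0.124 in Alg. These means differed from each other by less than the SD of Control, d-SMG, or GAG. In Control day 14 the MMP sum was 583 FPKM and the TIMP sum 273 FPKM, with the lowest Timp1 of all libraries. In d-SMG day 3 the MMP sum was 56.2 FPKM, the lowest of all, and the TIMP sum 231 FPKM. Without Mmp2 the same libraries remained the lowest and the highest, at 0.158 and 1.17. When the ratio was formed from mean log2(FPKM + 1) values, in which each gene weighs the same, they were no longer the extremes. The lowest was then GAG day 14 at 0.0561 and the highest Alg day 7 at 0.117.

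**Figure D2:**
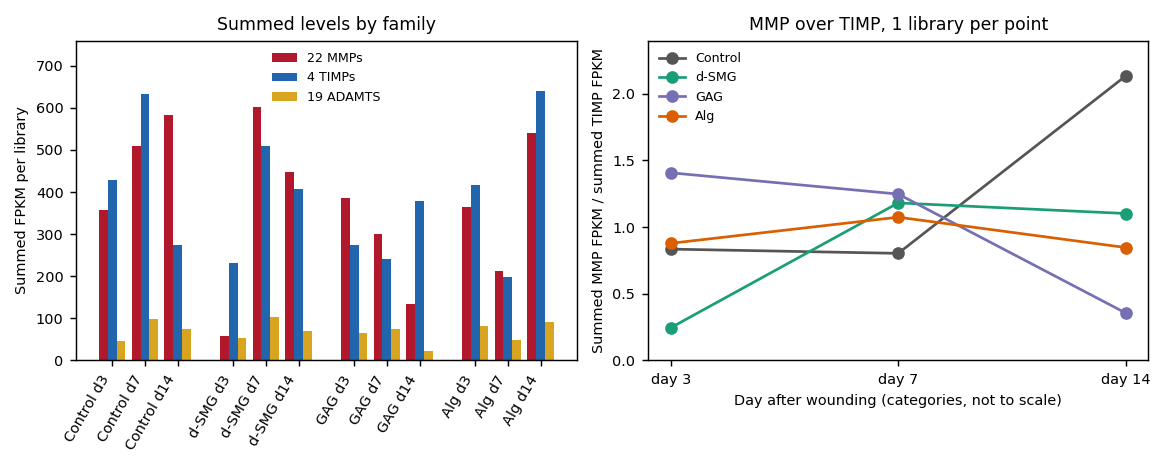
Left, bars give the summed FPKM of 22 MMPs, 4 TIMPs, and 19 ADAMTS genes in each of the 12 libraries. Right, points give the MMP sum over the TIMP sum by day, 1 library per point, with 2.13 in Control day 14 at the top and 0.243 in d-SMG day 3 at the bottom.

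ADAMTS transcripts were scarcer, with summed levels from 21.4 FPKM in GAG day 14 to 102 FPKM in d-SMG day 7. Adamts1, a proteoglycan-cleaving enzyme, had the largest mean over the 12 libraries, 19.2 FPKM, with 12.2, 17.8, and 11.4 FPKM in Control and 23.7, 19.3, and 23.8 FPKM in d-SMG. It had 17.8, 29.0, and 4.22 FPKM in GAG and 26.96, 10.7, and 33.8 FPKM in Alg. Adamts1 was thus lowest in GAG day 14, where 10 of the 18 ADAMTS genes that reached 1 FPKM had their lowest FPKM. The share of all genes that were lowest in this library was not computed. By the fold rule described below, 29.8% of all genes tested were lower there than in Control. FPKM also does not use the TMM factor, which was 0.781 in this library. Adamts2, which removes the N-propeptide of fibrillar procollagens, had 11.3, 10.4, and 34.5 FPKM in Control and 2.85, 17.0, and 14.7 FPKM in d-SMG. It had 14.9, 13.1, and 7.13 FPKM in GAG and 15.5, 7.36, and 20.2 FPKM in Alg, so that Control day 14 was above the other 11 libraries. Adamts10, which binds fibrillin microfibrils, had 6.64, 17.8, and 10.3 FPKM in Control and 6.13, 20.4, and 11.2 FPKM in d-SMG. It had 10.7, 11.9, and 3.52 FPKM in GAG and 12.5, 10.95, and 8.24 FPKM in Alg. Adamts2 was above Adamts1 in the day 14 libraries of Control and GAG, and Adamts10 was at or above it in the day 7 libraries of Control, d-SMG, and Alg.

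Several ADAMTS genes shared a high point on day 7 in Control and d-SMG. Adamts12, which cleaves cartilage oligomeric matrix protein (COMP), was at 13.5 and 11.8 FPKM in Control and d-SMG on day 7, and between 0.34 and 4.76 FPKM in the other 10 libraries. Adamts7, its relative with the same substrate, was at 6.81 and 4.31 FPKM in those libraries and at 0.38 to 2.30 FPKM elsewhere. The procollagen proteases Adamts3 and Adamts14 had 1.66 and 6.27 FPKM in Control day 7 and 1.59 and 3.40 FPKM in d-SMG day 7, again their 2 highest libraries. Of the 19 ADAMTS genes, 8 had their highest FPKM in Control day 7 and 3 in d-SMG day 7. The share of all genes that were highest in these libraries was not computed, so that the counts are descriptions. The fibroblast sums of these libraries, 8773 and 7111 FPKM, were also the highest of the 12. The summed ADAMTS over TIMP ratio had a median of 0.212 on day 3, 0.222 on day 7, and 0.154 on day 14, and ran from 0.0564 in GAG day 14 to 0.310 in GAG day 7.

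**Figure D3:**
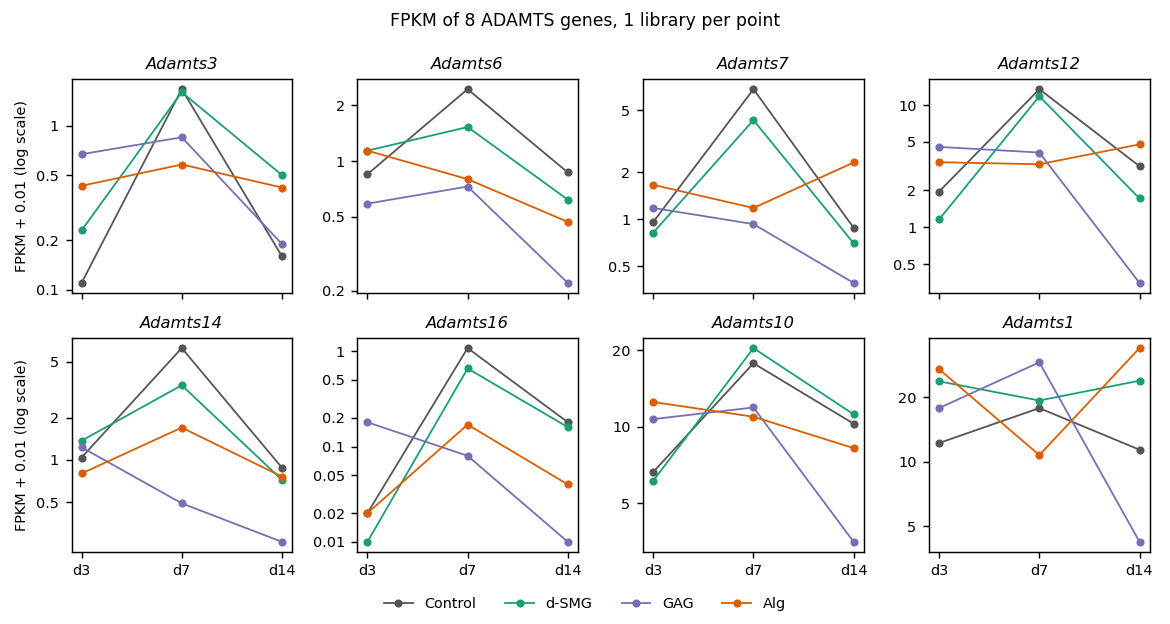
FPKM (plus 0.01, log scale, own range in each panel) of 8 ADAMTS genes by day after wounding, with 1 library per point and a line for each treatment. Adamts3, Adamts7, Adamts12, Adamts14, and Adamts16 peak on day 7 in Control and d-SMG, and GAG day 14 is the lowest point for Adamts1, Adamts6, Adamts7, Adamts10, Adamts12, and Adamts14.

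Each dressing was then set against the saline-treated wound of its own day to find which proteases and inhibitors differed. Changes are ratios of TMM-normalized reads, and a gene was counted as higher or lower when it had at least 10 reads in the pair, differed at least 2-fold, and had an exact 95% interval (Clopper-Pearson) of the log2 ratio that left out 0. That interval covers counting error only, no p-value is given because each side is 1 library, and the 3 comparisons of a day share their control. From 39 to 42 of the 45 genes had enough reads. In 20 of the 158 cases past the rule the lower library alone had fewer than 10 reads, so that the gene could have entered the test through the higher library, and counts that include such genes are descriptions. The largest rise and fall given for each pair are those among genes with at least 100 reads on the higher side of the pair, and scarcer genes could lie beyond them.

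On day 3, d-SMG had 6 of 40 genes higher and 12 lower than Control, against 9.09% and 11.8% of all genes tested. The split was by family, with 10 of 19 MMPs lower and 1 higher, and 5 of 17 ADAMTS genes higher and 1 lower. Scaling by library size alone gave 4 higher and 19 lower, and moved the median of all genes by -0.46. The largest fall among the well-covered genes was that of Mmp3, from 4410 reads to 64, or 35.2-fold (log2 change -5.14, interval -5.52 to -4.78). Mmp2 and Mmp14 were lower by log2 changes of -2.26 and -2.01, Mmp11 by -4.24, Mmp13 by -5.08, and Mmp9 by -5.00. The largest rise among them was that of Adamts9, a proteoglycan-cleaving enzyme, from 187 to 720 reads, or 7.54-fold (log2 change 2.91, interval 2.68 to 3.15). Its relatives Adamts4, Adamts20, and Adamts1 rose 4.68-fold, 2.77-fold, and 2.67-fold. The others of this proteoglycan-cleaving group, Adamts15, Adamts8, and Adamts5, did not pass the rule, with log2 changes of 0.94, -0.16, and -0.72. Among the TIMPs, Timp3 was lower (log2 change -1.12), and Timp1, Timp2, and Timp4 had changes of -0.27, -0.63, and -0.56. These values rest on the library with almost no keratinocyte transcripts, in which all 10 skeletal muscle genes were higher, 5 of 10 macrophage genes lower, and 2 of 10 fibroblast genes lower.

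On day 7, d-SMG had 6 of 42 genes higher and 6 lower, against 5.78% and 4.86% of all genes. With library size alone the split was 8 higher and 3 lower, with a shift of 0.29 in the median of all genes. Among genes with at least 100 reads, Mmp3 led the rises with 1757 reads against 265, or 4.68-fold (log2 change 2.23, interval 2.04 to 2.42). Adamts20 led the falls with 37 reads against 129, or 4.94-fold (log2 change -2.30, interval -2.87 to -1.77). Mmp13 and Mmp9 were lower by log2 changes of -1.53 and -1.23, Mmp27 and Timp4 were higher by log2 changes of 1.5 and 1.23, and the log2 change of Mmp2 was 0.0019 (interval -0.03 to 0.04). In the same pair all 10 hair follicle genes and 5 of 8 keratinocyte genes were higher, and 9 of 10 skeletal muscle genes were lower (median log2 change -3.63). The part of these markers in the result was not tested.

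On day 14, d-SMG had 8 of 41 genes higher and 7 lower, against 11.4% and 14.4% of all genes. With library size alone the split was 11 higher and 4 lower, and the shift was 0.19. Mmp13 led the rises with 255 reads against 16, or 20.6-fold (log2 change 4.36, interval 3.64 to 5.19), followed by Mmp9 with a log2 change of 3.66. Timp1, Timp3, and Mmp3 were higher too, with log2 changes of 1.81, 1.16, and 1.13. Mmp11 led the falls with 95 reads against 938, or 7.65-fold (log2 change -2.94, interval -3.26 to -2.63). Adamts2, the inhibitor Timp4, and Mmp14 were lower, with log2 changes of -1.39, -1.07, and -1.03. In the same pair all 10 skeletal muscle genes were lower (median log2 change -2.89), 4 of 10 macrophage genes were lower, and 8 of 10 hair follicle genes were higher, and the part of these markers in the result was not tested.

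GAG on day 3 had 10 of 42 genes higher and 4 lower, against 12.7% and 10.2% of all genes. Of the 10, 8 were ADAMTS genes, but Adamts16, Adamts17, Adamts18, and Adamts19 among them had 4, 7, 6, and 7 reads in Control. Adamts18, an orphan protease without an established main substrate, rose most among genes with at least 100 reads, from 6 to 172 reads, or 38.2-fold (log2 change 5.26, interval 4.11 to 6.72). Mmp12 rose 8.6-fold by a log2 change of 3.10 (interval 2.92 to 3.30). Mmp3 fell most among such genes, from 4410 to 961 reads, or 3.44-fold, and the log2 change of Timp1 was -1.63. In the same pair all 10 hair follicle genes, 5 of 8 keratinocyte genes, and 4 of 10 fibroblast genes were higher, and 5 of 10 macrophage genes were lower. The part of these markers in the result was not tested.

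On day 7, GAG had 6 of 42 genes higher and 17 lower, against 10.8% and 11.5% of all genes, with 8 MMPs, 8 ADAMTS genes, and Timp1 among the lower ones. Adamts16, an orphan protease known from kidney and gonad development, fell most, from 228 to 41 reads, or 14.8-fold (log2 change -3.89, interval -4.40 to -3.40). Adamts14 and Adamts7 fell with log2 changes of -3.76 and -2.93, and Timp1 with -2.64. Mmp3 rose most, 3.87-fold with 2731 reads against 265, and Timp4 and Timp3 had log2 changes of 1.78 and 1.63. In the same pair of libraries, 9 of 10 fibroblast genes and 8 of 10 macrophage genes were lower, and all 8 keratinocyte and 10 hair follicle genes were higher.

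On day 14, GAG had 5 of 40 genes higher and 20 lower, against 25.4% and 29.8% of all genes. Scaled by library size alone, 3 were higher and 24 lower, and with RLE size factors 5 and 16. Mmp13 rose from 16 to 222 reads, or 18.6-fold (log2 change 4.22, interval 3.48 to 5.05), and Mmp9 rose by 3.82 on the log2 scale. Timp1 and Timp3 rose by 2.39 and 1.08 on the same scale. Among genes with at least 100 reads Adamts9 fell most, from 333 to 32 reads, or 7.77-fold (log2 change -2.96, interval -3.53 to -2.43), and Mmp14, Adamts12, Adamts2, and Mmp2 fell with log2 changes of -2.95, -2.87, -1.93, and -1.82. None of the 19 ADAMTS genes was higher and 11 were lower. This library had the lowest macrophage sum, and 7 of 10 fibroblast genes and 9 of 10 macrophage genes were lower in the pair. In the same pair 9 of 10 hair follicle genes were higher. Of the 10 skeletal muscle genes 5 were higher and 3 lower, and of the 8 keratinocyte genes 3 were higher and 3 lower.

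Alg on day 3 had 7 of 41 genes higher, all of them ADAMTS genes, and 6 lower, all of them MMPs, against 9.75% and 7.53% of all genes. Of the 7, Adamts17, Adamts18, and Adamts19 had 7, 6, and 7 reads in Control. Among genes with at least 100 reads Adamts18 rose most, from 6 to 149 reads, or 28.8-fold (log2 change 4.85, interval 3.69 to 6.32), and Adamts9 rose 3.56-fold. Mmp12 fell most among them, from 265 to 67 reads, or 3.41-fold (log2 change -1.77, interval -2.18 to -1.38), and in the same pair 8 of 10 macrophage genes were lower and all 10 hair follicle genes higher. Mmp7, a protease of gland epithelium, had 0 reads against 29. Computed against 3 reads in that library it was 8.32-fold lower, and the exact interval of its log2 ratio reached up to -2.67. The log2 changes of the 4 TIMPs lay between -0.50 and 0.69.

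On day 7, Alg had 4 of 39 genes higher and 19 lower, against 10.6% and 11.1% of all genes. Adamts16 fell most, from 228 to 36 reads, or 6.47-fold (log2 change -2.69, interval -3.24 to -2.18), and Adamts7, Timp1, Mmp14, Mmp2, and Timp2 fell with log2 changes of -2.48, -2.47, -1.61, -1.19, and -1.16. Mmp27, a little-studied MMP of the stromelysin group on chromosome 8, rose most among genes with at least 100 reads, 2.72-fold with 114 reads against 41 (log2 change 1.44, interval 0.92 to 2.0). The log2 change of Timp3 was 1.20. In the same pair all 10 macrophage genes and 7 of 10 fibroblast genes were lower, and all 10 hair follicle genes, all 8 keratinocyte genes, and 7 of 10 skeletal muscle genes were higher.

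On day 14, Alg had 11 of 40 genes higher and 4 lower, against 8.53% and 9.88% of all genes, and with library size alone 12 and 2. Mmp13 rose most, from 16 to 279 reads, or 22.7-fold (log2 change 4.50, interval 3.78 to 5.33). Timp1 rose 8.1-fold by a log2 change of 3.02 (interval 2.92 to 3.12), with 6122 reads against 982, and Mmp9 and Mmp3 rose by log2 changes of 2.4 and 1.36. Mmp11 fell most, from 938 to 94 reads, or 7.67-fold (log2 change -2.94, interval -3.26 to -2.63). In the same pair 4 neutrophil genes of the 6 tested and 9 of 10 hair follicle genes were higher. All 10 skeletal muscle genes (median log2 change -2.41) and 4 of 10 fibroblast genes were lower. Against the same Control of day 14, 3 of 6 neutrophil genes were higher in d-SMG, and in GAG 2 of 5 were higher and 2 lower. The part of these markers in the result was not tested.

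**Figure D4:**
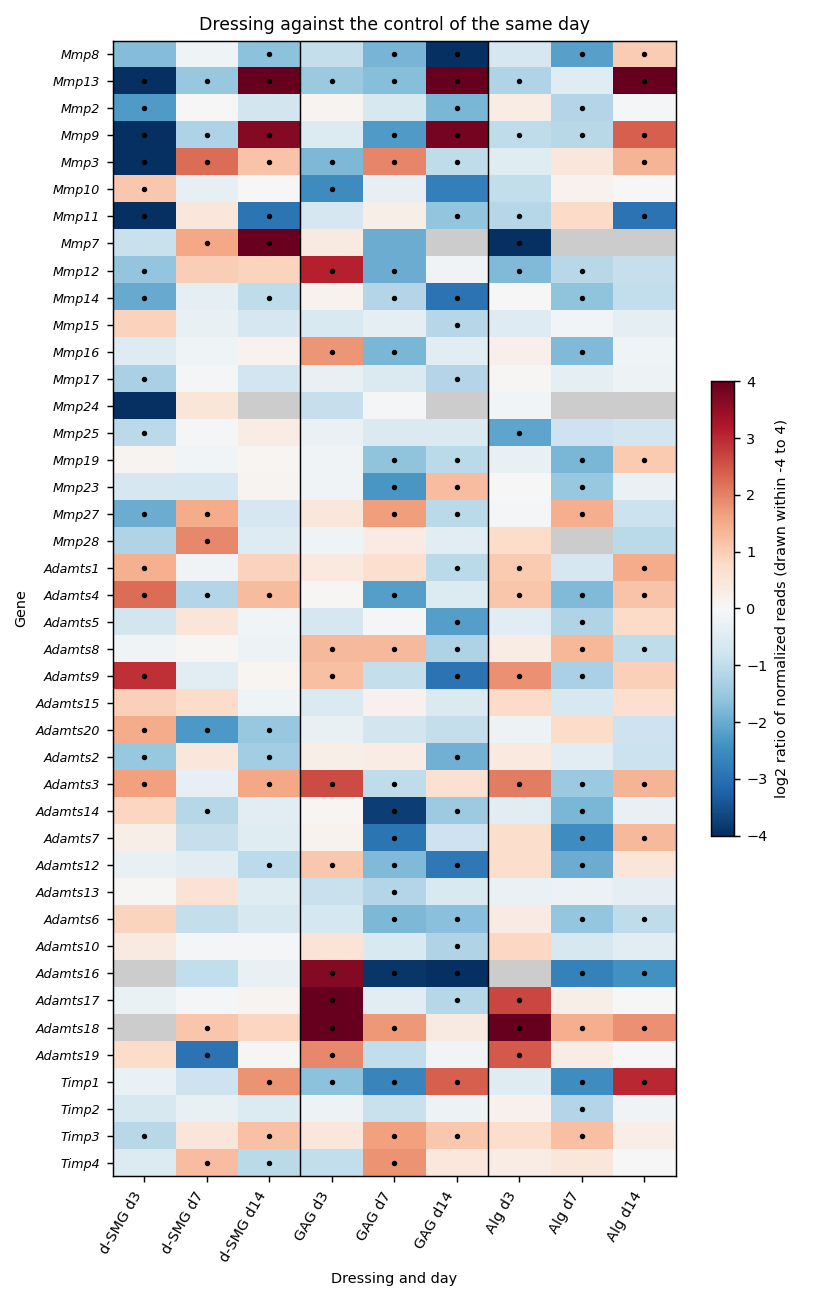
Colours give the log2 ratio of normalized reads of the dressing over the control of the same day (drawn within -4 to 4, red higher, blue lower) for 42 genes with enough reads in some pair, in 9 comparisons. Dots mark genes past the fold rule and gray cells had fewer than 10 reads. Mmp13 and Mmp9 turn from blue on day 3 to red on day 14 in the d-SMG columns.

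Over the 9 comparisons Mmp13 and Mmp9 passed the rule 8 times each, and Mmp3, Adamts3, and Adamts4 did so 7 times each. The share of all genes that passed as often was not computed, so that these counts are descriptions. Comparisons of the same day are not independent, because they share their Control library. Mmp13, Mmp9, Adamts3, and Adamts4 had their highest FPKM in Control day 7, so that their falls on day 7 rest on that shared library. Timp1 passed it 6 times and Timp2 once, in Alg day 7. Adamts15, a proteoglycan-cleaving enzyme with 2.32 to 9.45 FPKM, was the only gene tested in all 9 comparisons that never passed. Because the control of day 14 had 16 reads of Mmp13 and 17 of Mmp9, and every dressing is set against it, the rises of both genes on day 14 share that library.

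Few genes kept a direction over the 3 days. Adamts18 was higher in Alg on all of them, as were 1.20% of all genes tested, and no other gene of the set kept 1 direction past the rule on all 3 days in any dressing. Its FPKM was 0.04, 0.18, and 0.40 in Control and 1.22, 0.47, and 1.5 in Alg on day 3, 7, and 14. In the same 3 pairs 10, 10, and 9 of the 10 hair follicle genes were higher in Alg, and the part of these genes in the result was not tested. Opposite directions on 2 days of the same dressing were found for 8 of 39 genes in d-SMG, against 9.65% of all genes. They were found for 14 of 40 genes in GAG, against 10.6%, and for 10 of 38 in Alg, against 6.21%. In d-SMG these were Mmp13, Mmp9, Mmp3, Mmp27, Adamts4, Adamts20, Timp3, and Timp4.

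A model over all 12 libraries, with treatment and day as terms, asked whether a dressing differed from Control over the days or a day from another over the treatments. In this quasi-likelihood test of edgeR the days serve as the replicates of a treatment, so that an effect that changed with the day entered the spread, and 41 of the 45 genes had enough reads. No gene of the set passed an adjusted p of 0.05 in any of the 7 contrasts, and neither did any of the 16110 genes tested (0%). At an unadjusted p under 0.05, d-SMG against Control had 0 genes of the set higher and 1 lower (1.35% of all genes). GAG had 1 higher and 3 lower (9.26%), Alg 1 higher and 2 lower (3.12%), and the 3 dressings together 1 higher and 2 lower (4.83%). With single libraries left out, these totals ran from 0 to 3 for d-SMG, 2 to 7 for GAG, 0 to 5 for Alg, and 1 to 6 for the dressings together. The gene lower in d-SMG was Mmp11, with a log2 change of -2.15 ± 0.829 (SE, edgeR adjusted p = 1). Adamts18 was higher with GAG by 2.5 ± 1.01 (edgeR adjusted p = 0.524) and with Alg by 2.47 ± 0.972 (edgeR adjusted p = 1). The smallest adjusted p was that of Adamts6 with GAG (log2 change -1.45 ± 0.401, edgeR adjusted p = 0.417). DESeq2 called 9 genes for d-SMG, 277 for GAG, and 93 for Alg, none of them in the set. The median log2 change of the 41 genes was -0.19 with d-SMG, -0.41 with GAG, and -0.18 with Alg, beside -0.03, 0.0021, and -0.03 over all genes.

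Between days, 4 genes of the set were higher and 0 lower on day 7 than on day 3 at an unadjusted p under 0.05 (1.81% of all genes), namely Adamts3, Mmp8, Mmp16, and Mmp11. On day 14 against day 3, 0 were higher and 3 lower (4.95% of all genes), namely Adamts6, Adamts20, and Mmp15. On day 14 against day 7, 1 was higher and 6 lower (3.12% of all genes). Leaving out single libraries gave totals from 1 to 12, 1 to 6, and 3 to 9 for these 3 contrasts, the 12 without GAG day 3. The 6 lower on day 14 than on day 7 were Adamts3, Adamts14, Adamts12, Adamts7, Adamts6, and Adamts10, with log2 changes from -1.99 ± 0.610 (SE) for Adamts3 to -0.87 ± 0.315 for Adamts10, and Mmp27 was higher by 1.35 ± 0.539. The edgeR adjusted p of these 7 was 0.904, so that none passed. DESeq2 called 18, 46, and 26 genes for day 7 against day 3, day 14 against day 3, and day 14 against day 7, none of them in the set. The median change of the set was 0.32 from day 3 to day 7 and -0.41 from day 7 to day 14, beside -0.0023 and 0.01 over all genes.

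Genes that work with these proteases were read from lists set by hand, and none of their members passed an adjusted p of 0.05 in any of the 7 contrasts. In the same-day comparisons the 10 protease inhibitors other than TIMPs, a list that also holds the collagen chaperone Serpinh1 and the procollagen processing enhancer Pcolce, gave 9 rises and 17 falls in 79 tests. Over all genes, 11.6% of the tests in the 9 comparisons were rises and 12.4% falls. A2m, the broad-range protease trap alpha-2-macroglobulin, was higher in d-SMG day 3 and GAG day 3 and lower in GAG day 7, GAG day 14, and Alg day 7. The matrix substrates gave 36 rises and 39 falls in 172 tests. Col1a1, Col1a2, and Col3a1, the main fibrillar collagen chains, were higher in GAG day 3 and lower in GAG day 7, GAG day 14, and Alg day 7. Col1a1 and Col1a2 were also lower in Alg day 14, and Col1a2 was lower in d-SMG day 7. The cathepsins and other matrix proteases gave 1 rise and 25 falls in 99 tests. The activators and cell-surface partners gave 11 and 15 in 97 tests, and the ADAMTS-like proteins and ADAM sheddases 16 and 24 in 117.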

How the data were processed

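Wound tissue of diabetic rats was analyzed in 12 libraries, 1 for each of 4 treatments on each of 3 days. The authors deposited read counts per gene without normalization, and FPKM values that they had scaled by gene length and library total. The submitters' processing notes name bcl2fastq, FastQC, TopHat2, and edgeR, and the genome build and whether counting used strand are not given in the sources used here. Reads shared by related genes such as Mmp3 and Mmp10, and reads of antisense neighbours, may therefore have been assigned in either way. A further column (1 in either table) matched no sample and was not used.

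Genes were chosen by symbol, and treatments and days were compared on the counts with the quasi-likelihood test of edgeR 4.0.16 in R 4.3.3 (TMM, filterByExpr, treatment and day as terms, Benjamini-Hochberg adjustment at 0.05). That test was also run on simulated counts with the same change in every library of a group. Several changes here differed between days, so that the simulation does not show how the test performs on these data. The SE beside an edgeR log2 change was not taken from edgeR. It was computed as the absolute change divided by the square root of the F statistic of the test. Same-day pairs were compared by the fold rule, at a confidence level of 95% and a floor of 3 reads per library, with SciPy 1.17.1. Depth limited genes under 10 reads. Levels were read from FPKM, a linear unit with no pseudocount.

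Values were given in every library for the TIMPs and the 10 genes with the largest mean FPKM. For each same-day comparison, the largest rise and fall among genes with at least 100 reads were named. Other genes named here, among them Mmp9 and the ADAMTS genes of the day contrasts, were chosen after their values were seen. The members and lists were chosen with earlier results of these data known. The alternatives were other scalings, filters, tests, and fold limits, DESeq2 1.42.0, limma 3.58.1 on log2(FPKM + 1) and log2(FPKM + 0.1), fits without the replicate block, and fits with libraries left out. The promoter windows came from a RefSeq table of GRCr8, which matched 34 of the 45 symbols.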

Additional observations from a re-analysis of the deposited data

Results flagged for a closer look

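In 23 cases a gene that reached 100 reads in both pairs was past the fold rule in opposite directions on 2 days of the same dressing. With 1 library per treatment and day the difference between days was not tested, and each value rests on 4 libraries. In d-SMG, the log2 change was higher on day 14 than on day 3 by 9.44 for Mmp13, 8.67 for Mmp9, and 2.28 for Timp3. It was higher on day 7 than on day 3 by 7.36 for Mmp3 and 3.47 for Mmp27, and higher on day 3 than on day 7 by 3.39 for Adamts4 and 3.77 for Adamts20. For Timp4 it was higher on day 7 than on day 14 by 2.30. Of these 8 genes, 7 involve the d-SMG library of day 3, which had almost no keratinocyte transcripts.

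In GAG, the log2 change was higher on day 14 than on day 7 by 5.91 for Mmp13, 6.07 for Mmp9, 5.03 for Timp1, and 3.55 for Mmp23. For Mmp27 it was higher on day 7 than on day 14 by 2.76. It was higher on day 3 than on day 14 by 4.17 for Adamts9 and 3.93 for Adamts12, and higher on day 3 than on day 7 by 5.09 for Mmp12. For Mmp3 it was higher on day 7 than on day 3 by 3.74. In Alg, it was higher on day 14 than on day 3 by 5.71 for Mmp13. It was higher on day 14 than on day 7 by 5.49 for Timp1, 3.78 for Adamts7, 2.92 for Adamts4, and 2.87 for Mmp19, and higher on day 3 than on day 7 by 3.12 for Adamts9. Timp1 thus turned from lower on day 7 to higher on day 14 in both GAG and Alg, each against the same Control libraries, in which it went from 410.0 to 47.7 FPKM.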

How the results depend on the processing

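No gene of the set passed an adjusted p of 0.05 in any of 161 results for the 7 contrasts from alternative fits. A single fit gave several of these results, the fits shared libraries, and many used fewer than the 12 libraries. Among them were other scalings, DESeq2, limma, no filter, no replicate block (0 genes), and each library left out in turn (0 to 0 genes). The lowest adjusted p was 0.0698, from DESeq2 for GAG. The added fit without d-SMG day 3 and GAG day 14, chosen after the data were seen, called 177 genes for GAG and 18 for the 3 dressings, and 0 of the set. At an unadjusted p under 0.05, leaving out 1 library gave from 0 (without Control day 3, d-SMG day 14, or Alg day 7) to 3 (without Control or d-SMG day 7) genes of the set for d-SMG, 2 (without Control day 7) to 7 (without GAG day 3 or Alg day 14) for GAG, and 0 (without Alg day 3) to 5 (without GAG day 3) for Alg. It gave 1 (without d-SMG day 14, GAG day 7, or Alg day 3) to 6 (without GAG day 3) for the 3 dressings together, and 1 (without Control day 3 or d-SMG day 7) to 12 (without GAG day 3) for day 7 against day 3. For day 14 against day 3 it gave 1 (without d-SMG day 3 or day 14) to 6 (without GAG day 3), and for day 14 against day 7 from 3 (without Control day 7) to 9.

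For the fold rule, a 4-fold limit, which is stricter by construction, left 8, 3, and 4 genes in d-SMG on day 3, 7, and 14, 6, 7, and 9 in GAG, and 6, 4, and 5 in Alg. The ratio of FPKM + 1, which shrinks low genes, left 5 in d-SMG on day 7 and 8 on day 14, 6 and 15 in GAG on day 3 and 14, and 5, 13, and 5 in Alg on day 3, 7, and 14. That ratio left 2 higher and 11 lower in d-SMG on day 3, and 4 higher and 12 lower in GAG on day 7. An exact test of edgeR with an assumed BCV (between-animal coefficient of variation) of 0.3 called 8, 1, and 3 genes of the set in d-SMG, beside 6.48%, 1.78%, and 5.87% of all genes. Of the 158 single changes past the rule, 153, 144, and 83 stayed past it under RLE size factors, library size, and FPKM ratios. Beyond the shifts given above, library size moved the median of all genes by 0.17 in GAG day 3, -0.39 in GAG day 14, and 0.15 in Alg day 3.

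The day medians of the MMP over TIMP ratio, 0.856, 1.13, and 0.974, became 0.0798, 0.0993, and 0.0734 from mean log2 values, and that of day 7 became 0.653 without Mmp2. The ADAMTS over TIMP medians became 0.494, 0.567, and 0.415 from summed normalized reads, which are not divided by length, and 0.0618, 0.0812, and 0.0521 from mean log2 values. Without d-SMG day 3 the MMP over TIMP median of day 3 was 0.878, and without GAG day 14 that of day 14 was 1.10. The ADAMTS over TIMP medians of these days were then 0.192 and 0.168. With 1 library per treatment and day, differences on a single day could not be separated from the spread between animals, and genes with few reads, such as Mmp1 and Mmp20, could not be compared at this depth.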
